A study of Rattus norvegicus with 6 samples.

Results

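Incretin signalling in the β-cell was followed through 10 genes, Glp1r, Gipr, Gcgr, Gnas, Adcy6, Adcy8, Prkaca, Prkar1a, Rapgef4 and Creb1, chosen by their place in the pathway. Earlier results of these data were known when they were chosen. All probe sets annotated to 1 of these genes were taken, which gave 18 of the 31042 probe sets that are not controls. Each probe set pools short oligonucleotides against a transcript into a linear signal, an intensity. RNA came from the rat insulinoma 832/13 INS-1 line, a clonal β-cell line used between passages 7 and 25 and grown in 11 mM glucose. The 3 COUP-TFII siRNA arrays and the 3 scrambled siRNA arrays carry RNA of cells electroporated with siRNA against COUP-TFII or with a scrambled siRNA and cultured for 48 h. The sources used here do not give the passage of each array, and no array comes from cells treated with an incretin. The comparison asks whether RNA of the GLP-1 receptor and of the steps behind it differs in COUP-TFII depleted cells.

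Gut hormones named incretins, GLP-1 and GIP, act on β-cells through class B receptors coupled to the stimulatory G protein. The G protein activates adenylyl cyclases, and the cAMP they make binds the regulatory subunits of protein kinase A (PKA) and the exchange factor Epac2. PKA phosphorylates exocytosis proteins, ion channels and the transcription factor CREB, while Epac2 acts on granule release, so that the pathway raises insulin secretion when glucose is high. The same receptors are known for effects on β-cell survival and growth.

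Sequences of the promoters are shown first, since the siRNA was directed against a transcription factor and CREB lies at the end of the pathway. RefSeq windows from 250 bases before to 50 bases after a start site (build GRCr8) were found for 7 of the 10 genes, as 11 windows. COUP-TFs read repeats of the half-site AGGTCA, and CREB reads TGACGTCA, whose core TGACG was also searched. Each was sought on both strands, and every TGACGTCA holds a TGACG. The 250 bases before the start of Glp1r (chr20:8973143-8973392, plus strand) and of the first of 2 starts of Gcgr (chr10:106306553-106306802, plus strand) are printed for the receptors. For Creb1 (chr9:73397409-73397468, plus strand) and Prkaca (chr19:41083230-41083289, minus strand) the stretch with TGACG, or its reverse complement CGTCA, is printed with the matches in capitals.
Glp1r promoter: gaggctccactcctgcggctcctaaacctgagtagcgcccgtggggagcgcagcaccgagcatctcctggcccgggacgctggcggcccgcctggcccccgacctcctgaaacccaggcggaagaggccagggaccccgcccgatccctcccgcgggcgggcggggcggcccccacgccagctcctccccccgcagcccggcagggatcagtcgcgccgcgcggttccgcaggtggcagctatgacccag
Gcgr promoter: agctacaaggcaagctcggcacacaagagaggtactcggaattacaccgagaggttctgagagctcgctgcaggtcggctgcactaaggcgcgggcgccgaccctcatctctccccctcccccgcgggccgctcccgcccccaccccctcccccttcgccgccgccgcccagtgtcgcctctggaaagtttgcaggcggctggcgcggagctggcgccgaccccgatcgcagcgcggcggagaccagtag
Creb1 promoter part: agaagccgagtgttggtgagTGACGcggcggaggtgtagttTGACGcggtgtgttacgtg
Prkaca promoter part: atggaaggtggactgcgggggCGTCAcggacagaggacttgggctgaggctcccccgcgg

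AGGTCA was found in 1 of the 11 windows, against 16.2% of all 33469 RefSeq windows of that length. It lies 139 bases before the second start of Creb1. TGACG was found in 4 of the 11 windows, against 21.2% of all windows, and TGACGTCA in 0, against 1.83%. The Creb1 window holds TGACG at 80 and 59 bases before the start. Prkaca holds the reverse complement at 193 and 79 bases before its start, of which the nearer one is shown. The other matches lie 6 bases after the first Gnas start, 8 bases after the first Creb1 start and 21 bases after that of Glp1r. These letters are not in the Gcgr windows. A match is a string of letters in a window and was not tested as a binding site.

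Nr2f2, the gene for COUP-TFII, was checked before the members. Its brightest probe set, 1389554_at, read 47.0, 27.7 and 23.8 in COUP-TFII depleted cells against 182, 235 and 179 in control cells. The groups lay far apart. The log2 fold change was -2.65 with a standard error of 0.30, and limma gave an adjusted p of 0.404, or of 0.0185 when same-numbered arrays were blocked. As a background level served the 27 Bacillus controls of the array, absent from rat RNA, whose highest signal was 20.7. Probe sets with both group means no higher than this are termed dim. Nr2f2 1370063_at was also lower without overlap of the groups, at a log2 fold change of -1.71 (standard error 0.32). Nr2f2 1395863_at was dim, and its groups overlapped at a log2 fold change of -0.37 (standard error 0.56). Of the 18 member probe sets 3 were dim, 1 of Adcy8 and 2 of Creb1, while 14 had a mean at or above the median of all probe sets. Each of the 7 measured β-cell markers (Ins1, Ins2, Iapp, Pdx1, Nkx6-1, Mafa and Slc2a2) lay above 20.7 on all 6 arrays. So did Gcg, the 1 of 4 measured α-cell markers that did, while 0 of the measured δ-cell, PP-cell and acinar markers did. Of 12 measured duct, fibroblast, endothelial and leukocyte markers, Krt7, Pdgfra, Kdr and Cd68 also did.

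No member passed the test between COUP-TFII depleted and control cells. Of the 18 probe sets 0 passed at 0.05 after adjustment in the unpaired fit with limma, where 0.0% of all probe sets passed. At an unadjusted p up to 0.05 there were also 0, against 2.31% of all. With the replicate number as a block, 0 passed after adjustment (0.0161% of all) and 1, Gcgr, at an unadjusted p up to 0.05 (6.23% of all). The unpaired adjusted p was 1 for each of the 18 probe sets. By mean 11 were lower and 7 higher in COUP-TFII depleted cells, and their median log2 fold change was -0.024, against -0.0031 over all probe sets. In bulk RNA, fewer cells that make a transcript and less of it per cell cannot be told apart.

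**Figure D1:**
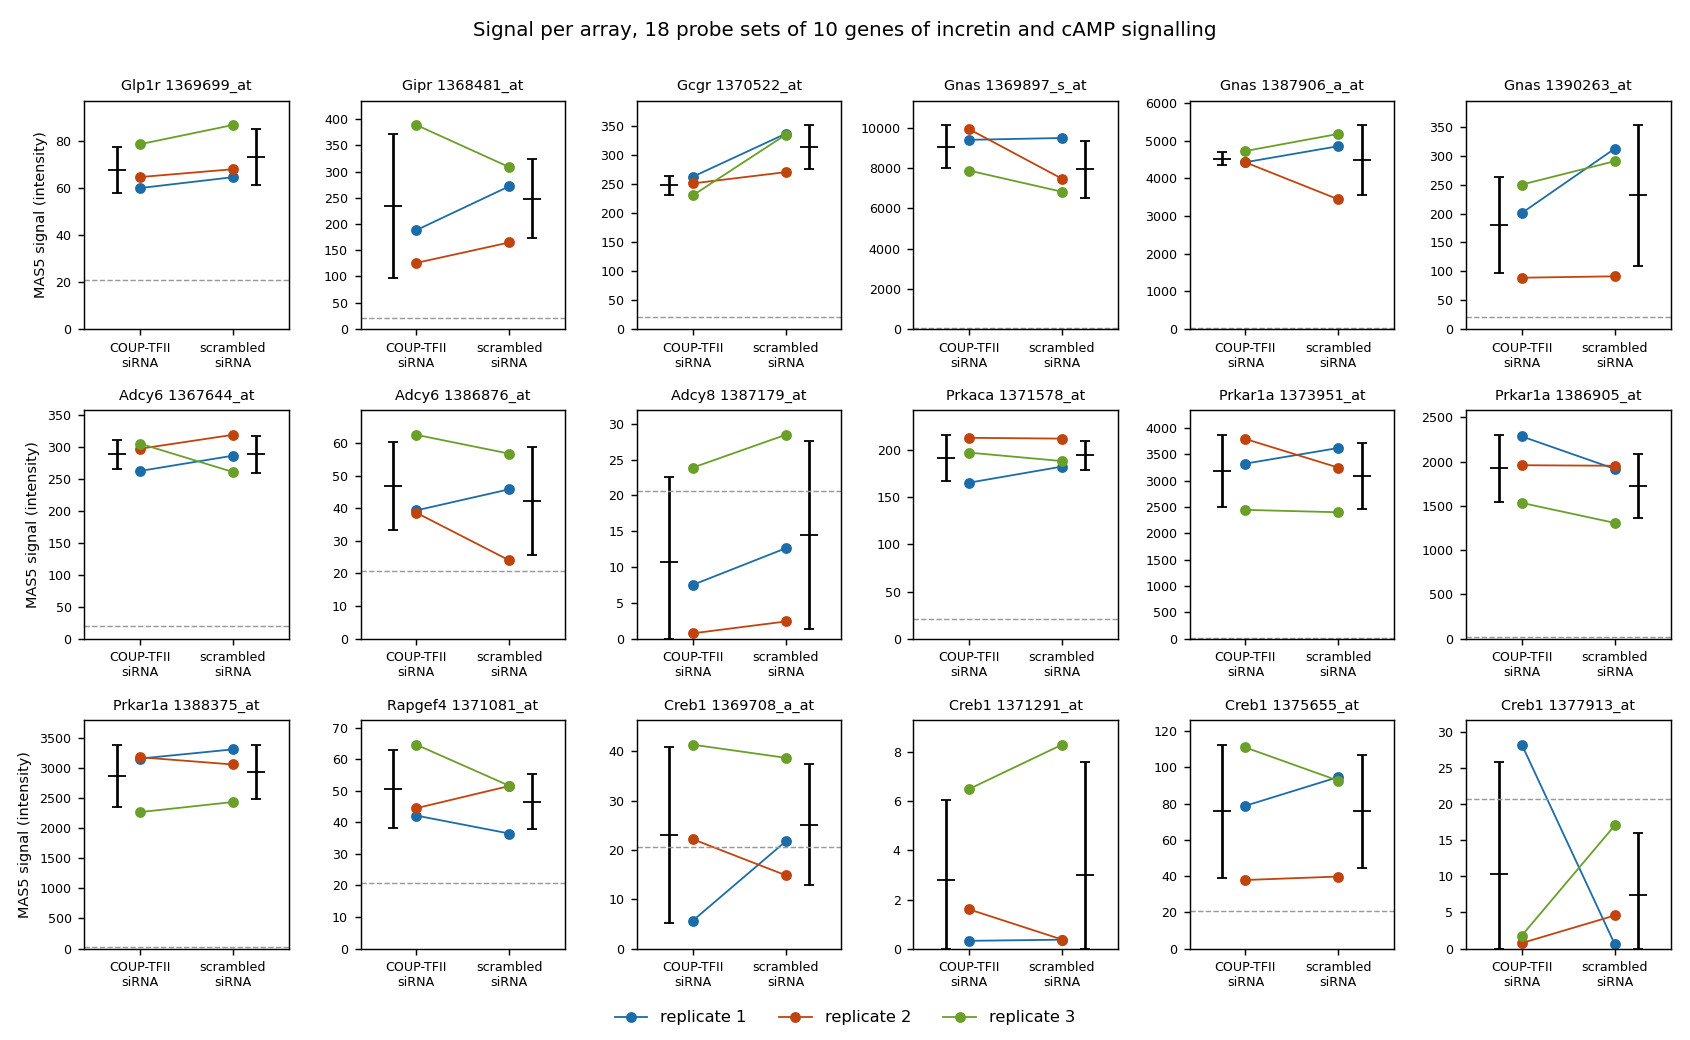
MAS5 signal per array (intensity, linear axis from 0) of the 18 probe sets after COUP-TFII siRNA (left) or scrambled siRNA (right). Each point is 1 array, same-numbered arrays are joined, black bars give mean ± SD (n = 3, cut at 0), and a dashed line marks the Bacillus maximum of 20.7. Among the 18 panels the groups are apart in that of Gcgr alone.

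Glp1r, the receptor for GLP-1, was read by 1 probe set, 1369699_at. Its signals were 60.1, 64.8 and 78.8 in COUP-TFII depleted cells against 64.7, 68.1 and 87.0 in control cells. The groups overlapped nearly in full, although each same-numbered pair (3 of 3) had the lower signal after COUP-TFII siRNA, with log2 differences of -0.11, -0.073 and -0.14. limma estimated a log2 fold change of -0.11 (95% interval -0.67 to 0.46, adjusted p = 1). On the linear scale that interval runs from -37.3% to 37.4%, so with 3 arrays a group changes of Glp1r RNA within it are not excluded. No limit of detection was computed. With the block the interval was -0.52 to 0.30 (adjusted p = 0.929 from limma), and without scrambled siRNA replicate 3 the log2 fold change was 0.022.

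Gipr, the receptor for GIP, read 188, 126 and 389 in COUP-TFII depleted cells against 272, 165 and 309 in control cells. The replicate 2 arrays were lowest and the replicate 3 arrays highest in both groups. The log2 fold change of Gipr was -0.20 (95% interval -1.10 to 0.71, adjusted p = 1 from limma), with 2 of 3 pairs lower. Leaving out COUP-TFII siRNA replicate 2 gave 0.17, and leaving out replicate 3 of that group gave -0.64.

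Gcgr, the glucagon receptor, was the member whose groups lay apart. It read 262, 251 and 230.0 in COUP-TFII depleted cells against 336, 270.1 and 334 in control cells, means of 248 ± 16.3 in COUP-TFII depleted cells and 314 ± 37.7 in control cells (SD, n = 3 each). All COUP-TFII depleted arrays lay below all control arrays, and scrambled siRNA replicate 2 came closest to them. Separation of this kind held for 1 of 18 member probe sets and for 6.69% of all probe sets, so that 1 member is near the background. The log2 fold change was -0.34 (standard error 0.15, 95% interval -0.69 to 0.014, adjusted p = 1 from limma), a difference of -20.8%. With the block the unadjusted p was 0.0129 and the adjusted p 0.777 from limma. Two-sided, the exact permutation test gave p = 0.1, the smallest p that 3 arrays against 3 allow. With each array left out the log2 fold change ran from -0.44 to -0.28. Its sign could not change there, because the groups do not overlap.

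**Figure D2:**
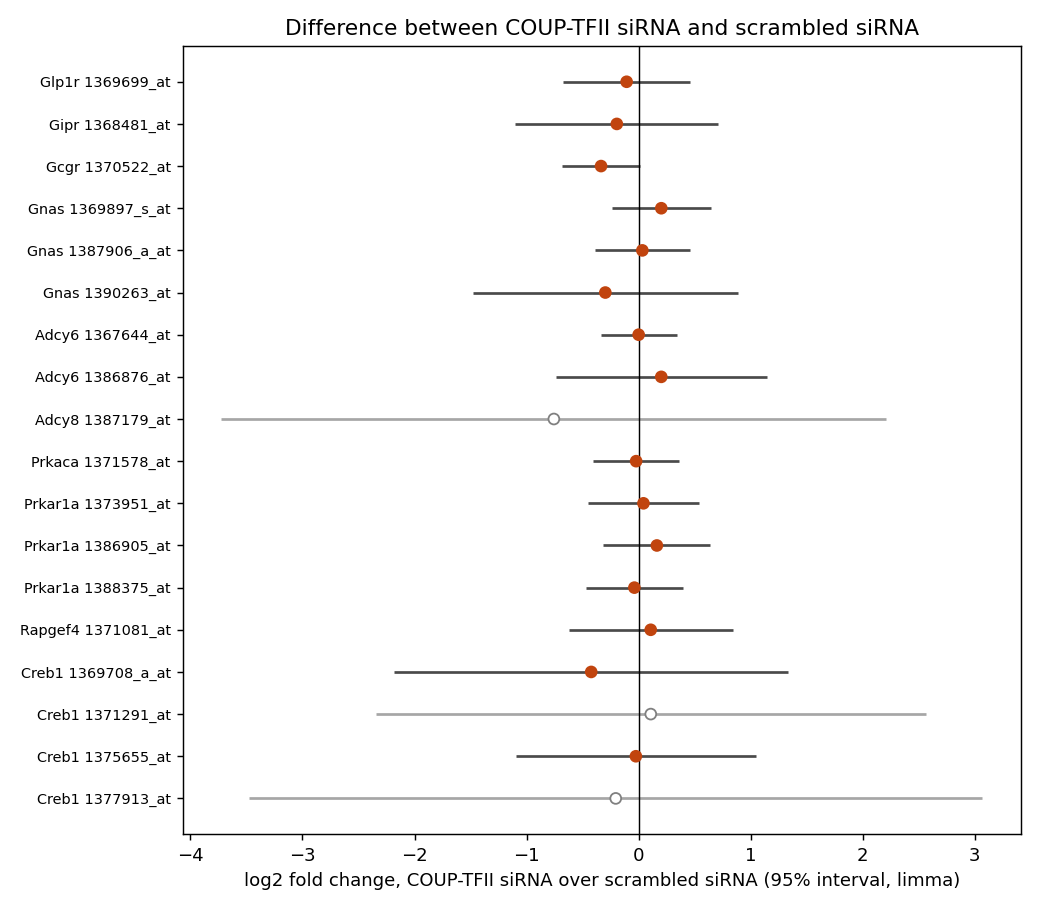
Ratio of COUP-TFII siRNA to scrambled siRNA cells on the log2 scale for the 18 member probe sets, with the 95% interval of limma. Open points are the 3 dim probe sets, and every interval holds 0, that of Gcgr by the smallest margin, with an upper end of 0.014.

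Gnas encodes the α-subunit of the stimulatory G protein, and transcripts of several start sites share its later exons. RefSeq places 3 of the 11 promoter windows at this gene. Its 3 probe sets were lower, higher and nearly level, so that the gene has no single direction here. Gnas 1369897_s_at read 9412, 9945 and 7881 in COUP-TFII depleted cells against 9504, 7476 and 6827 in control cells. This gave a log2 fold change of 0.20 (standard error 0.19, adjusted p = 1 by limma), positive with each array left out (0.10 to 0.34), and 0.026 after quantile normalization. Gnas 1387906_a_at read 4426, 4422 and 4723 in COUP-TFII depleted cells against 4852, 3439 and 5178 in control cells, a log2 fold change of 0.033 that was -0.053 after quantile normalization.

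Gnas 1390263_at read 201, 88.8 and 250.3 in COUP-TFII depleted cells against 313, 91.3 and 291 in control cells, so that both replicate 2 arrays lay far below the other 4. Between groups the log2 fold change was -0.30 (standard error 0.52), with 3 of 3 pairs lower, a blocked 95% interval from -0.60 to 0.0056 and a blocked adjusted p of 0.797 from limma. Without COUP-TFII siRNA replicate 2 it was 0.15.

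Adenylyl cyclases make cAMP from ATP, and type 6 is inhibited and type 8 stimulated by calcium. Adcy6 1367644_at read 262, 297 and 305 in COUP-TFII depleted cells against 286, 318 and 260.3 in control cells. The means were 288 ± 22.7 and 288 ± 29.1 (SD, n = 3 each) in COUP-TFII depleted and control cells, and the 95% interval of the log2 fold change ran from -0.34 to 0.34. Its other probe set, 1386876_at, read 39.3, 38.6 and 62.5 in COUP-TFII depleted cells against 45.8, 24.0 and 56.7 in control cells, a log2 fold change of 0.20 (standard error 0.41). Both probe sets of Adcy6 had overlapping groups. Adcy8 1387179_at was dim, at 7.52, 0.756 and 23.9 in COUP-TFII depleted cells against 12.6, 2.41 and 28.5 in control cells. Only the replicate 3 arrays passed the highest Bacillus control signal, so the log2 fold change of -0.76 (standard error 1.30) rests on signals at background.

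PKA is a tetramer of catalytic subunits, such as the Prkaca product, and regulatory subunits, such as that of Prkar1a, which release them when cAMP binds. Prkaca 1371578_at read 165, 213 and 197 in COUP-TFII depleted cells against 182, 212 and 188 in control cells. Pairs differed in both directions by little, and the log2 fold change was -0.023 (standard error 0.17, 95% interval -0.40 to 0.36). All 3 Prkar1a probe sets were bright, with lower signals on the replicate 3 arrays of both groups. Prkar1a 1373951_at read 3322, 3789 and 2444 in COUP-TFII depleted cells against 3618, 3245 and 2399 in control cells. Prkar1a 1388375_at read 3156, 3178 and 2266 in COUP-TFII depleted cells against 3308, 3058 and 2434 in control cells. Their groups overlapped, and their log2 fold changes were 0.042 and -0.038. Prkar1a 1386905_at read 2283, 1958 and 1533 in COUP-TFII depleted cells against 1917, 1952 and 1307 in control cells. It was higher in 3 of 3 pairs, in replicate 2 by 0.0044 on the log2 scale, with a log2 fold change of 0.16 (standard error 0.21, adjusted p = 1, and 0.806 with the block, from limma).

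Rapgef4 encodes Epac2, the cAMP-activated exchange factor that acts beside PKA on granule release. It read 42.2, 44.5 and 64.6 in COUP-TFII depleted cells against 36.5, 51.5 and 51.6 in control cells. The groups overlapped and the log2 fold change was 0.11 (standard error 0.32, 95% interval -0.62 to 0.84).

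Creb1, the transcription factor that PKA phosphorylates, was read by 4 probe sets, of which 1 lay above 20.7 on all 6 arrays. That probe set, 1375655_at, read 78.8, 37.9 and 111 in COUP-TFII depleted cells against 94.7, 39.8 and 92.7 in control cells. The replicate 2 arrays read less than the other 4, and the group means nearly coincided, 75.9 ± 36.7 in COUP-TFII depleted cells against 75.7 ± 31.2 in control cells (SD, n = 3 each). The log2 fold change was -0.025 (standard error 0.47). Creb1 1369708_a_at read 5.65, 22.2 and 41.3 in COUP-TFII depleted cells against 21.7, 14.9 and 38.7 in control cells, partly under the Bacillus maximum. The dim probe sets 1371291_at and 1377913_at read from 0.316 to 8.31 and from 0.61 to 28.2 over the 6 arrays, and the 95% intervals of their log2 fold changes were -2.35 to 2.56 and -3.48 to 3.07.

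Variation between same-numbered pairs exceeded the difference between the siRNA groups in nearly all members. The sum of squares of the log2 signals over 6 arrays was split into the siRNA group, the replicate number and the rest, which hold 1, 2 and 2 of the 5 degrees of freedom. The replicate number held the largest part for 15 of 18 probe sets, against 62.3% of all probe sets and 74.0% of those at or above the median signal. Its median share was 85.8% in the members, 56.1% over all probe sets and 69.2% in the brighter ones. For Gcgr the siRNA group held 67.0%, and for Adcy6 1367644_at and Creb1 1377913_at the rest was largest.

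**Figure D3:**
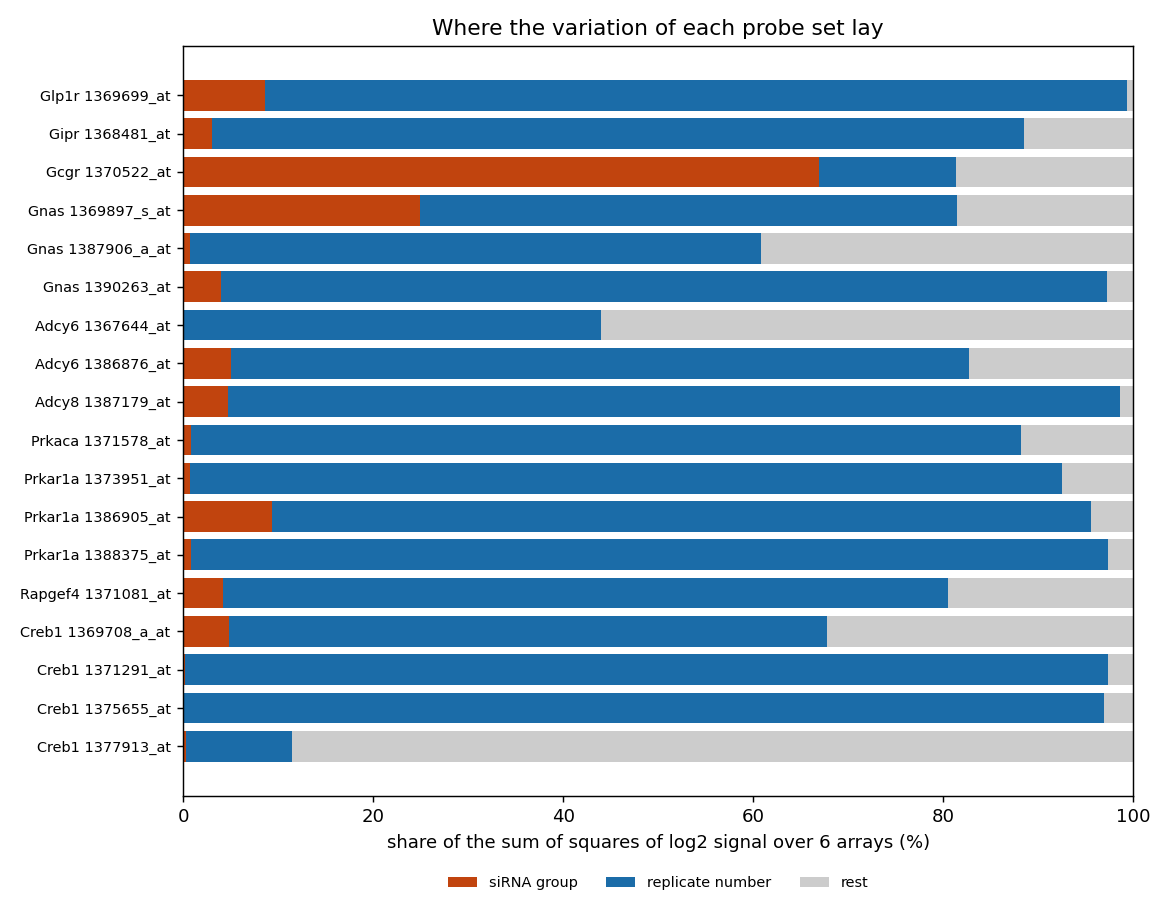
Share (%) of the sum of squares of the log2 signal over 6 arrays that lay between siRNA groups (orange), between replicate numbers (blue) and in the rest (grey), for each member probe set. Blue is the longest part of 15 of the 18 bars, and orange that of Gcgr (67.0%).

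A limma F test of the replicate number, chosen after these values were seen, called 6 of 18 probe sets at an adjusted p under 0.05, against 11.0% of all probe sets and 20.9% of those at or above the median signal. At an unadjusted p up to 0.05 it called 8, against 25.8% of all. The 6 were Gnas 1390263_at (adjusted p = 0.00057), Gipr (0.00862), Creb1 1375655_at (0.0108), Prkar1a 1386905_at (0.0218), Prkar1a 1373951_at (0.0363) and the dim Adcy8 probe set (0.0429). In replicate 2, against the mean of replicates 1 and 3, Gnas 1390263_at lay lower by a log2 difference of -1.53, Creb1 1375655_at by -1.27 and Gipr by -0.96. Prkar1a did not follow this order, since its replicate 3 arrays were the lowest. The replicate 2 arrays were also dimmer as a whole. Their median signal over all probe sets was 31.2 with COUP-TFII siRNA and 29.9 with scrambled siRNA, against 35.9 to 39.4 on the others. The labels say nothing of what a replicate number stands for beyond a biological replicate, and the cause of these differences was not tested.

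The signal differed in the same direction in all 3 same-numbered pairs for 5 of 18 member probe sets, against 27.4% of all probe sets. COUP-TFII depleted cells had the lower signal for Glp1r, Gcgr, Gnas 1390263_at and Adcy8 and the higher one for Prkar1a 1386905_at. The count is close to the background.

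The wider pathway was taken from 14 lists by role with 165 genes, of which 155, the 10 members among them, had a named probe set and were read by the brightest one. Of these, 0 passed an adjusted p of 0.05 in either fit, and at an unadjusted p up to 0.05 there were 1 lower gene and 0 higher ones in the unpaired fit, against 2.31% of all probe sets. With the block there were 9 lower genes, Gcgr included, and 4 higher ones, 13 of 155 against 6.23% of all probe sets. By mean 83 genes were lower and 72 higher in COUP-TFII depleted cells, with a median log2 fold change of -0.023. The groups did not overlap for 7 genes lower in COUP-TFII depleted cells, again with Gcgr, and 3 higher. These 10 of 155 are at the background of 6.69% of all probe sets. Of the 155 genes 36 were dim.

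**Figure D4:**
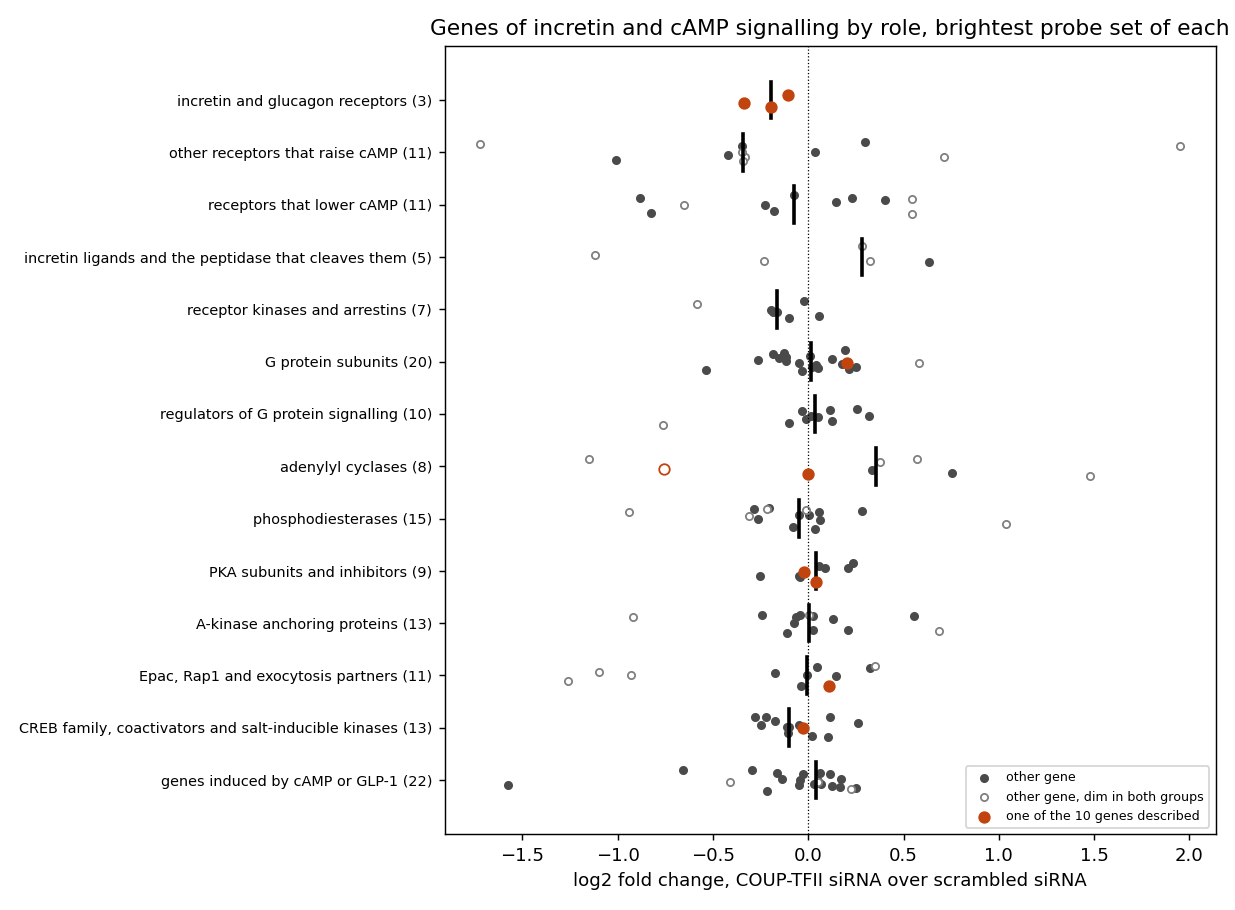
Ratio of COUP-TFII siRNA to scrambled siRNA cells on the log2 scale for the brightest probe set of each measured gene in 14 lists by role, with the number of genes in brackets and a black bar at each list's median. Orange points are the 10 genes described, open points are dim in both groups, and the vertical scatter is for display only. Medians lie between -0.34 for other receptors that raise cAMP and 0.36 for adenylyl cyclases, lists in which 6 of 11 and 5 of 8 genes are dim.

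Of 4 ligands and Dpp4, the peptidase that cleaves incretins, Gcg was the only one not dim, while Gip, Adcyap1, Vip and Dpp4 were dim. Gcg is the proglucagon gene, whose product is cut to glucagon or GLP-1. Gcg read 8056, 4789 and 817 in COUP-TFII depleted cells against 6313, 3397 and 394 in control cells. Both replicate 3 arrays read far less than the other 4, and the replicate number held 95.2% of the sum of squares. In 3 of 3 pairs COUP-TFII depleted cells read more, with a log2 fold change of 0.63 (standard error 1.07, limma adjusted p = 1, or 0.566 blocked). It was -0.55 without scrambled siRNA replicate 3.

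Of 11 other receptors that raise cAMP, 7 were lower and 4 higher by mean, with 0 at an unadjusted p up to 0.05. Adora2b, an adenosine receptor, read 277, 249 and 327 in COUP-TFII depleted cells against 289, 385 and 485 in control cells. It was lower in 3 of 3 pairs, with a log2 fold change of -0.42 (standard error 0.21, blocked adjusted p = 0.759 from limma), and Adora2a, for another adenosine receptor, was at 0.30. The 11 receptors that lower cAMP had a median of -0.073, with Adra2a, an adrenergic receptor, at 0.23 and Adora1, an adenosine receptor, at -0.18. Grk6, a kinase that desensitises receptors, had groups that did not overlap at 1247, 1346 and 1410.1 in COUP-TFII depleted cells against 1513, 1416 and 1615 in control cells, a log2 fold change of -0.18. Arrb1, an arrestin, was at -0.099.

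G protein subunits centred on 0 over 20 genes, with a median of 0.015, and 9 of them were lower by mean. Gng3, a γ-subunit also named after its values were seen, read 649, 1288 and 328 in COUP-TFII depleted cells against 878, 1678 and 569 in control cells. All 3 pairs were lower, with a log2 fold change of -0.54 (standard error 0.51, limma adjusted p = 1, or 0.361 blocked). Leaving out replicate 3 of the COUP-TFII siRNA group moved Gng3 to -0.045 and leaving out its replicate 2 to -1.03. For the scrambled siRNA group, Gng3 was at -0.12 with replicate 2 left out and at -0.90 with replicate 3 left out. Gng12 was at -0.26 and Gng5 at 0.18. The 10 regulators of G protein signalling had a median of 0.033, with Rgs3 at 0.32 and Rgs19 at 0.25.

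Among the other cyclases Adcy9 had a signal above 20.7 on all arrays but scrambled siRNA replicate 2, with a mean of 44.7 in COUP-TFII depleted cells against 34.6 in control cells (log2 fold change 0.33, standard error 0.48). Adcy2 and Adcy4, named after their values were seen, had higher groups that did not overlap, but their means in COUP-TFII depleted cells, of 25.2 and 7.07, and in control cells, of 15.2 and 2.61, lie near or below the Bacillus control signal. The 15 phosphodiesterases, which break down cAMP or cGMP, had a median log2 fold change of -0.050. Pde7a read 187, 203 and 184 in COUP-TFII depleted cells against 153, 157 and 161 in control cells, with a log2 fold change of 0.28 (standard error 0.15, blocked adjusted p = 0.797 from limma). Its groups did not overlap, and with 1 array left out the value ran from 0.24 to 0.31. Pde2a had the opposite sign, at -0.26.

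Among 9 PKA subunits and inhibitors, 4 were lower and 5 higher by mean. Prkacb, a second catalytic subunit, read 1362, 1205 and 1499.9 in COUP-TFII depleted cells against 1603, 1574 and 1654.5 in control cells. Its groups did not overlap, and its log2 fold change was -0.25 (standard error 0.13, unadjusted p = 0.0936, and 0.0184 with the block, from limma). Prkar2b, a regulatory subunit, read 534, 501 and 419 in COUP-TFII depleted cells against 434, 415 and 382 in control cells, a log2 fold change of 0.23 (standard error 0.15). Their blocked adjusted p was 0.777 for each from limma, so neither passed. The 13 anchoring proteins that place PKA in the cell had a median of 0.0016, with Akap13 at -0.24 and Akap7 at 0.13.

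Downstream of Epac2, Snap25, a SNARE of granule fusion, read 1976, 1192 and 1358 in COUP-TFII depleted cells against 1541, 938 and 1128 in control cells. It was higher in 3 of 3 pairs, with a log2 fold change of 0.32 (standard error 0.24, blocked adjusted p = 0.696 from limma), while the groups overlapped. Rap1b, a GTPase that Epac2 loads, was at 0.15. The dim Unc13a was at -0.93, and it is named since its groups did not overlap.

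The CREB family, its coactivators and the salt-inducible kinases were lower by mean for 9 of 13 genes, against 15651 of all 31042 probe sets. Their median was -0.10 and ran from -0.14 to -0.020 with 1 array left out. The median over all probe sets then ran from -0.047 to 0.026. Atf1, a partner of CREB1 with the same kind of DNA-binding domain, read 1735, 1748 and 1323 in COUP-TFII depleted cells against 1888, 2022 and 1884 in control cells. All COUP-TFII depleted arrays lay below all control arrays, at a log2 fold change of -0.28 (standard error 0.15, limma adjusted p = 1, or 0.777 blocked). Sik3, a kinase that holds CREB coactivators in the cytoplasm, also had groups that did not overlap, at -0.25. Separation of this kind held for 2 of the 13 genes, against 6.69% of all probe sets. Neither gene passed adjustment over all probe sets.

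Of 22 genes induced by cAMP or GLP-1, 10 were lower and 12 higher by mean, with a median of 0.041. Pdx1, the β-cell transcription factor, read 391, 414 and 429 in COUP-TFII depleted cells against 505, 472 and 408 in control cells, a log2 fold change of -0.16 (standard error 0.14). Nr4a1, an immediate early nuclear receptor, was at -0.30 and lower in 3 of 3 pairs. Ccnd1, for cyclin D1, was the 1 gene under 0.05 before adjustment (log2 fold change -1.58, adjusted p = 1 from limma). It is named after its values were seen, and read 16.5, 40.3 and 5.87 in COUP-TFII depleted cells against 52.4, 46.0 and 43.0 in control cells. The signals of COUP-TFII siRNA replicates 1 and 3 lie under the Bacillus maximum. With 1 array left out the log2 fold change of Ccnd1 ran from -2.25, without COUP-TFII siRNA replicate 2, to -0.86, without replicate 3 of that group, and it was -0.88 with log2(signal + 16). Igf1r, the IGF-1 receptor and a target of incretin signalling, read 921, 395 and 500.4 in COUP-TFII depleted cells against 812, 421 and 462 in control cells, and the replicate number held 98.0% of its sum of squares. Its log2 fold change was 0.068, and that of Irs2, an insulin receptor substrate induced through CREB, was -0.042.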

How the data were processed

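The authors hybridized biotin-labelled cRNA of 6 samples to Affymetrix rat 230 2.0 arrays and deposited for each array a linear intensity of every probe set from MAS5 (version not given in the sources used here) and, per the methods, background-subtracted and normalized with reference probes. The table holds 31099 probe sets, of which 57 controls were left out. A floor of 1, which held 1.85% to 5.49% of an array's signals, preceded log2. An unpaired, two-sided model was fitted in limma 3.58.1 (R 4.3.3), using lmFit and eBayes with its trend on intensity, and p-values were adjusted over all 31042 probe sets after Benjamini and Hochberg. The fits were tested on simulated data. Exact permutation tests used scipy 1.17.1 in Python 3.11.15. Levels are not compared between probe sets, since each has its own probes, and the number of arrays limits the precision. The samples are labelled as biological replicates, but nothing says whether they are separate cultures. The p-values treat the samples as independent, which the labels do not settle. In limma they also rest on a variance drawn toward the trend over all probe sets.

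Symbols came from the platform annotation, with 1 symbol for 20826 probe sets, several for 436 (not named) and none listed for 9780. All were checked against RefSeq (GRCr8) by gene number. Replicates are numbered 1, 2 and 3 in either group. Deviations from the group means correlated at 0.111 to 0.231 for same-numbered arrays and at -0.146 to -0.010 for others. Because deviations within a group sum to 0, positive same-numbered values push the others below 0, so the ranges are not independent. On the same-numbered values the numbers were taken to pair the arrays, and blocked values are printed where they bear on a call. The members, lists and tests were chosen with earlier results of these data known. The text names every member and Nr2f2, and of the rule's 4 genes with the lowest p in each list, at or above the median signal, mostly the first 2. Others are named because their groups did not overlap, because of their blocked p, or because the study measured them. Dim ligands are named to account for their list.

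Tried instead were a filter at the median signal, log2(signal + 16), median centring, quantile normalization, a fit with no trend, Student's t-test, the replicate block, each array left out, the dimmest probe set of a gene and, chosen after seeing the data, both replicate 2 arrays left out.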

Additional observations from a re-analysis of the deposited data

How the results depend on the processing

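The count of 0 member probe sets after adjustment was the same under each of the alternatives run, and the lowest adjusted p of a member was 0.777 from limma. All 18 were tested, except that the filter at the median signal kept 14. At an unadjusted p up to 0.05 there were 0 member probe sets, 1 with Student's t-test, 0 to 1 with 1 array left out and 2 without both replicate 2 arrays, an alternative chosen after seeing the data. The 155 pathway genes gave 1 such gene, 0 with the filter at the median signal, 2 with quantile normalization or the dimmest probe set of each gene, 3 with Student's t-test or no trend, 1 to 3 with 1 array left out (3 without scrambled siRNA replicate 2) and 4 without both replicate 2 arrays. With the replicate block there were 1 member probe set and 13 pathway genes, and Nr2f2 1389554_at, at the same log2 fold change of -2.65, passed the threshold (adjusted p = 0.0185 from limma). Among members, pathway genes and Nr2f2, the block changed no other call at an adjusted p under 0.05. Over all probe sets 5 passed with the block, against 0 in the unpaired fit.

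Gcgr and Gnas 1369897_s_at kept their direction in all alternatives, Gnas 1369897_s_at at 0.026 after quantile normalization, while the other 16 member probe sets changed sign in at least 1. For Gcgr, leaving arrays out could not change the direction, because its groups do not overlap. Quantile normalization gave -0.053 for Gnas 1387906_a_at, 0.023 for Adcy6 1367644_at, 0.0024 for Prkaca and -0.024 for Prkar1a 1373951_at. With log2(signal + 16), Creb1 1371291_at was at -0.0037 and Creb1 1377913_at at 0.075. Without both replicate 2 arrays the log2 fold changes were -0.13 for Gnas 1387906_a_at, 0.050 for Adcy6 1367644_at, -0.040 for Adcy6 1386876_at, -0.048 for Prkar1a 1373951_at, -0.18 for Creb1 1371291_at, 0.79 for Creb1 1377913_at and 0.021 for Irs2. With 1 array left out, log2 fold changes that changed sign ran over -0.22 to 0.022 for Glp1r, -0.64 to 0.17 for Gipr, -0.15 to 0.15 for Gnas 1387906_a_at, -0.87 to 0.15 for Gnas 1390263_at, -0.071 to 0.074 for Adcy6 1367644_at, -0.16 to 0.46 for Adcy6 1386876_at, -1.80 to 0.49 for Adcy8, -0.10 to 0.080 for Prkaca, -0.13 to 0.22 for Prkar1a 1373951_at, -0.026 to 0.32 for Prkar1a 1386905_at, -0.17 to 0.12 for Prkar1a 1388375_at, -0.085 to 0.22 for Rapgef4, -1.05 to 0.38 for Creb1 1369708_a_at, -0.68 to 1.13 for Creb1 1371291_at, -0.44 to 0.41 for Creb1 1375655_at, -1.67 to 0.79 for Creb1 1377913_at, -0.10 to 0.69 for Adora2a, -0.55 to 1.61 for Gcg, -0.25 to 0.13 for Arrb1, -0.018 to 0.69 for Adcy9, -0.0025 to 0.25 for Akap7, -0.21 to 0.19 for Irs2 and -0.28 to 0.36 for Igf1r. The cause was not tested. Dim probe sets have signals at background, where a log2 fold change has little meaning.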
